A study of Mus musculus with 10 samples.

Results

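Ace, Edn1, Ece1 and Cck, 4 of the 23479 gene entries of the deposited table, were described in cultured mouse mammary carcinoma cells. They are the vasoactive and gut peptide genes that stood out for large differences between the knockdown lines and the control, so those differences are given below as levels and sizes with no test. The cells were clone 4T1-T, grown from a single cell of the 4T1 line, so that every library comes from 1 clone, and all of them had been infected with a short hairpin RNA. The 5 groups of 2 libraries, A and B, carried shRenilla (a hairpin against a luciferase gene, used as the control), shSerpine2-1, shSerpine2-2, shSlpi-1 or shSlpi-2. Serpine2 and Slpi encode secreted inhibitors of serine proteases. The labels do not say whether A and B were separate cultures, and p-values therefore reflect the variation from library to library alone, which may be technical.

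Ace encodes angiotensin-converting enzyme, a peptidase that makes angiotensin II from angiotensin I and also breaks down bradykinin. Edn1 encodes the precursor of endothelin-1, a strong vasoconstrictor that many carcinoma cells secrete; furin-like proteases cut the precursor to big endothelin-1, and endothelin-converting enzyme, the product of Ece1, cuts that to the active peptide, which acts on the receptors Ednra and Ednrb. Cck encodes the precursor of cholecystokinin, a peptide of gut endocrine cells and neurons that is trimmed and sulfated before it acts on the receptors Cckar and Cckbr.

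All 4 members matched a RefSeq start by symbol on GRCm38.p6, the build that mm10 names. The 250 bases before the first listed start are shown for the 3 members that differed most from the control, so that what their promoters share and do not share can be seen. They run 5′ to 3′ on the gene's strand, with motif matches in capitals.

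Ace, chr11:105967698-105967947, plus strand: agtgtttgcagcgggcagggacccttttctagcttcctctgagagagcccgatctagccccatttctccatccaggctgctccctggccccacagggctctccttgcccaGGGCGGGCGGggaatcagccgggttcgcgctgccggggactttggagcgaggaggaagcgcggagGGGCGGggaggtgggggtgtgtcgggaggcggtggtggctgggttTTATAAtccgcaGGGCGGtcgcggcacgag

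Edn1, chr13:42301226-42301475, plus strand: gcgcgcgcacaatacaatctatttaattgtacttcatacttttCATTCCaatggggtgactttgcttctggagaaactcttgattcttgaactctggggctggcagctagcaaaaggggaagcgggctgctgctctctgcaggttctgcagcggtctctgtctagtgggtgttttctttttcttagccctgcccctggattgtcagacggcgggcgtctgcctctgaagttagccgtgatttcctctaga

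Cck, chr9:121495695-121495944, minus strand: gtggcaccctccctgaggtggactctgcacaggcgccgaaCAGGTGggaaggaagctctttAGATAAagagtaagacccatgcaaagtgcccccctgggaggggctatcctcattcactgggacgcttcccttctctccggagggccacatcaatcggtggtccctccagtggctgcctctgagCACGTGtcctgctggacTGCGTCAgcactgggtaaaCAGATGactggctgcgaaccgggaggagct

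The capitals in Ace mark GC boxes (GGGCGG) that begin 140, 136, 75 and 18 bases before the start, of which the first and second overlap, and a pair of overlapping TATA matches (TATAA, one on each strand) 30 and 29 bases before it. In Edn1 they mark a single match to the TEAD motif GGAATG, read on the other strand, 207 bases before the start, and a match to the GATA motif AGATAA lies 9 bases after the start, outside the bases shown. In Cck they mark 3 E-boxes (CANNTG) 210, 66 and 30 bases before the start, a GATA match at 189 and a CRE-like TGCGTCA at 49. Of 32851 RefSeq windows of 300 bases (250 before and 50 after a start), searched on both strands, 35.7% held GGGCGG, 24.9% TATAA, 14.7% GGAATG, 72.3% CANNTG, 11.2% AGATAA and 2.12% TGCGTCA. The 8 windows of the members, which include 4 starts of Ece1 and 2 of Ace, held 0 matches to the AP-1 motif TGANTCA and 0 to the CRE core TGACGT, which 7.81% and 7.51% of windows held. These matches are letters in a window and were not measured as binding.

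In GENCODE M21 on GRCm38, Ace (ENSMUSG00000020681.14) spans bases 105967945 to 105989964 of chromosome 11 on the plus strand. Edn1 (ENSMUSG00000021367.8) spans 42301476 to 42307990 of chromosome 13 and Ece1 (ENSMUSG00000057530.14) 137862237 to 137965229 of chromosome 4, both on the plus strand. Cck (ENSMUSG00000032532.7) spans 121489824 to 121495694 of chromosome 9 on the minus strand. Antisense genes share exon bases with Ace (Gm11651, 295 bases) and with Edn1 (Gm47118, 35 bases). No source used here says whether reads were counted by strand, so reads of these antisense genes cannot be told apart from those of Ace and Edn1.

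Libraries held 15877431 to 24026620 reads. Values are the authors' normalized read counts, recovered from a transformed table. Serpine2 was 3256 and 3145 in shRenilla, 128 and 139 in shSerpine2-1, and 489 and 514 in shSerpine2-2. Slpi was 1189 and 1313 in shRenilla, 145 and 147 in shSlpi-1, and 60.9 and 75.8 in shSlpi-2. Each target was thus lowest in its own hairpin lines. Slpi was also low in shSerpine2-1, at 326 and 414, and close to the control in shSerpine2-2, at 1111 and 1218, while Serpine2 was at 1331 to 1731 in the Slpi lines. The shSlpi-2 libraries stood apart: they differed from each other by a chi-square of 10.9 per degree of freedom, against 1.55 to 2.76 within the other groups, and Rn45s (ribosomal RNA precursor) took 6.88% and 6.91% of their reads, against 0.881 to 1.96% elsewhere. Entries with at least 1 read numbered 15389 and 15630 in shSerpine2-2, 15887 and 16040 in shRenilla, 17701 and 17841 in shSerpine2-1, 17895 and 18366 in shSlpi-1, and 19938 and 20253 in shSlpi-2. The mean level of the 9942 weakly detected entries (a read in some library and a mean under 10 normalized reads) ran the same way, from 0.890 in shSerpine2-2 to 3.50 in shSlpi-2. In bulk RNA, fewer cells that express a gene and less RNA of it per cell cannot be told apart.

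All 9 epithelial marker genes, Cdh1 and Epcam among them, had a mean of at least 10, with a summed level of 22178 to 22767 in shRenilla, 26269 to 26682 in shSerpine2-1, 27577 to 27744 in shSerpine2-2, 28163 to 28631 in shSlpi-1 and 32448 to 32513 in shSlpi-2. Of 12 endothelial markers 4 reached a mean of 10 (Tie1, Egfl7, Flt1 and Eng), with a summed list level of 1521 to 1752 over all libraries, and none was at 0 in every library. The defining endothelial genes Pecam1 and Cdh5 were at 1.76 to 31.2 and 1.05 to 16.1. Cd68 was the 1 leukocyte marker of 10 in the table to reach 10, and Ptprc, which marks leukocytes, was at 0 to 7.06. Of 8 fibroblast markers only Pdgfra reached a mean of 10. The list's summed level was 890 to 909 in shRenilla and 774 to 776 in shSerpine2-2. It was 629 to 654 in shSerpine2-1, 602 to 657 in shSlpi-1 and 470 to 604 in shSlpi-2. This sum is mostly Pdgfra, with a mean of 884 in shRenilla and 500 in shSlpi-2. Among the weak others, Col1a1 (5.36 and 17.7), Col1a2 (2.18 and 7.18) and Thy1 (0 and 4.32) were higher in shSlpi-2 than in shRenilla, and Dcn (3.83 and 0.473) was lower. None of 8 neuroendocrine markers reached 10, and their summed level was 2.20 to 8.91 in 8 libraries and 23.2 and 35.0 in shSlpi-2. The part of these markers in the members' levels was not tested.

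**Figure D1:**
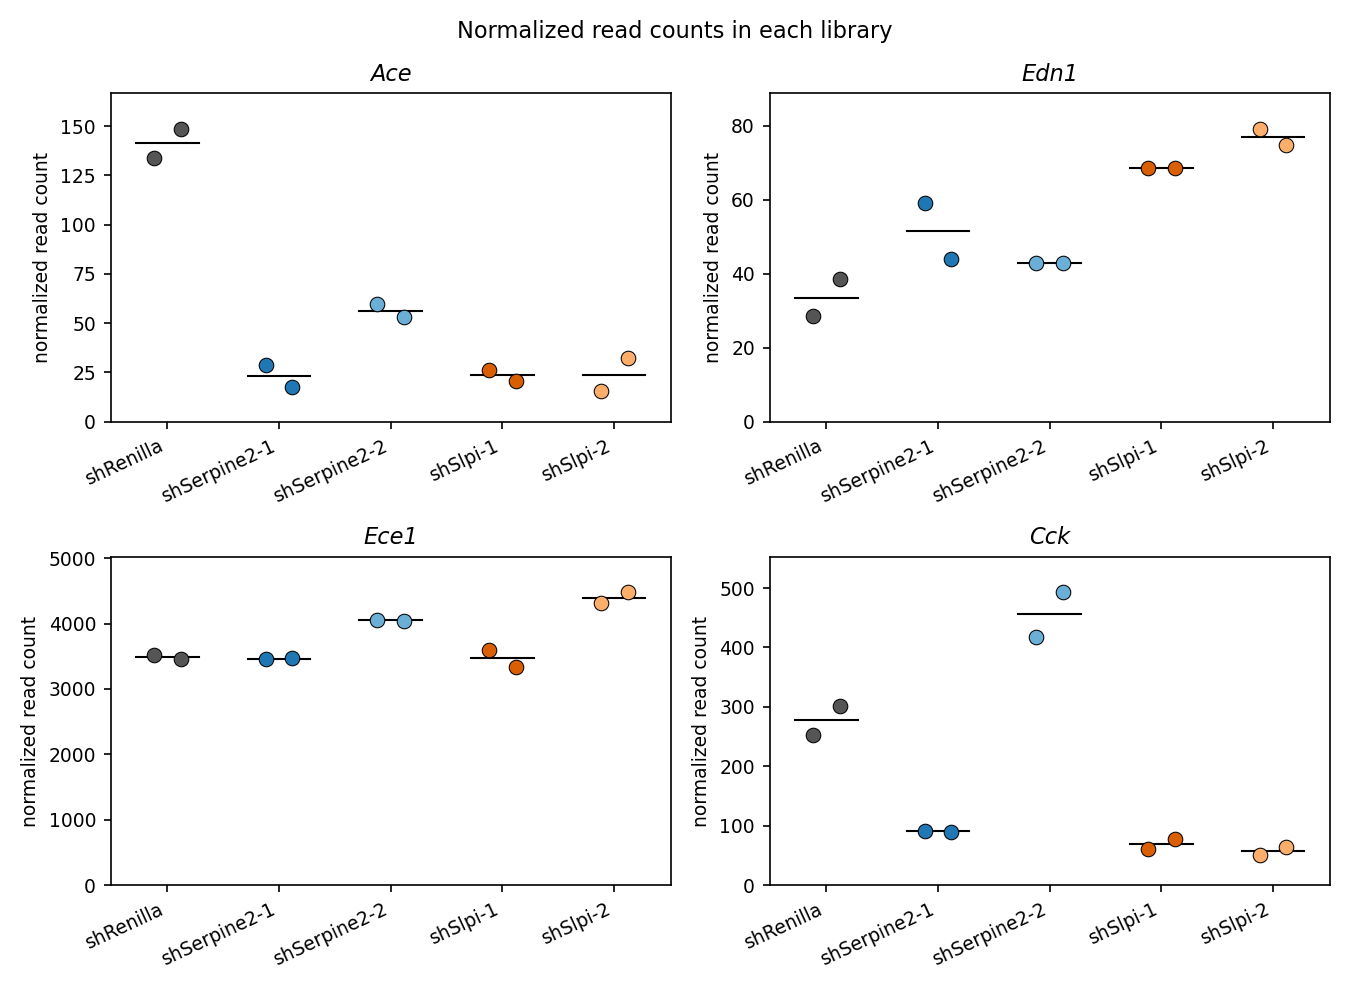
Normalized read count (vertical axes, from 0) of Ace, Edn1, Ece1 and Cck in each of the 10 libraries, by group (horizontal axes). Points are libraries and bars are means of 2 libraries: Ace was highest in shRenilla (134 and 149), Edn1 in shSlpi-2 (79.3 and 74.8), and Cck in shSerpine2-2 (418 and 493).

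Edn1, the endothelin-1 precursor, was higher in all 4 knockdown lines than in the control, and its level was highest with the Slpi hairpins. Edn1 was at 28.4 and 38.6 normalized reads in shRenilla, from 27 and 35 reads. It was at 59.0 and 44.1 in shSerpine2-1 and at 43.0 and 42.9 in shSerpine2-2. It was at 68.6 and 68.7 in shSlpi-1 and at 79.3 and 74.8 in shSlpi-2. No library of any knockdown line overlapped the control, though shSerpine2-2 lay just above shRenilla B. Among all 12299 genes tested, 18.8% had all 4 Serpine2 hairpin libraries above both controls and 19.5% all 4 Slpi hairpin libraries, and Edn1 was chosen on these contrasts.

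The group means of Edn1 were 1.54 and 1.28 times that of shRenilla in shSerpine2-1 and shSerpine2-2, and 2.05 and 2.30 times in shSlpi-1 and shSlpi-2. On the log2(normalized count + 1) scale, which understates differences of weak genes, the mean of both Serpine2 hairpins was 0.49 ± 0.19 (SE) above shRenilla and that of both Slpi hairpins 1.11 ± 0.19 above it. These sizes lean on the spread of the controls: without shRenilla A they were 0.27 and 0.90, and without shRenilla B 0.70 and 1.32. For shSerpine2-2 alone the difference was 0.36, with a 95% interval of -0.09 to 0.82. That interval includes 0, and at this depth the order of these neighbours in Edn1 level is not settled. The counts of weakly detected entries were also highest in shSlpi-2 and shSlpi-1. All levels of Edn1, 28.4 to 79.3, lay above the 95th percentile of the entries with a read and a mean under 10, which was 5.27 to 11.4 by library. Those entries were chosen for their low mean, so this comparison cannot show what such a background adds to Edn1. The part of that background in the difference was not tested.

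The hairpins of a target were also set beside each other. The members were picked for large differences of the knockdown lines, so these differences between lines are sizes with no test too. Edn1 was 0.24 higher in shSerpine2-1 than in shSerpine2-2, with a 95% interval of -0.21 to 0.70. It was 0.16 lower in shSlpi-1 than in shSlpi-2, where the difference (hairpin 1 minus hairpin 2) had an interval of -0.62 to 0.29. Both intervals include 0, so the direction of these differences is not settled at this depth.

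Cck, the cholecystokinin precursor, was low in 3 of the 4 knockdown lines and high in the fourth. It was at 253 and 302 normalized reads in shRenilla. The Serpine2 hairpins lay on either side of that level, at 91.3 and 89.4 in shSerpine2-1 and at 418 and 493 in shSerpine2-2. It was at 60.5 and 77.0 in shSlpi-1 and at 51.2 and 63.4 in shSlpi-2. The libraries of shSlpi-1 and shSlpi-2 overlapped each other, and none of the 4 lines overlapped shRenilla. All 4 Slpi hairpin libraries lay below both controls, as was the case for 20.6% of all genes tested.

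Compared with shRenilla, mean Cck was 3.07-fold lower in shSerpine2-1, 4.04-fold lower in shSlpi-1 and 4.84-fold lower in shSlpi-2, and it was 1.64 times the control in shSerpine2-2. The log2 difference of both Slpi hairpins was -2.13 ± 0.14 (SE). Of the genes tested, 0.154% differed by at least 2 on this scale between the Slpi hairpins and the control. Cck was chosen on these contrasts, so nothing is read from its place among them. The log2 difference of Cck for both Serpine2 hairpins was -0.44 ± 0.14, the mean of -1.60 for shSerpine2-1 and 0.71 for shSerpine2-2. The Slpi hairpins were compared with the Serpine2 hairpins as sizes alone, and Cck was 1.69 ± 0.11 higher with the latter.

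Between the Serpine2 hairpins, Cck differed by 2.32 ± 0.16 (SE) on the log2 scale and was lower in shSerpine2-1, with no overlap of the libraries. An adjusted p under 0.05 was found between these hairpins for 14.7% of all genes tested. No test of the members is given, since their choice used these lines. With only the Serpine2 hairpin libraries in the fit, 3599 of the 12299 genes tested passed, against 1805 in the main fit. Between the Slpi hairpins Cck was 0.26 higher in shSlpi-1, with a 95% interval of -0.08 to 0.59. The order of the groups by mean Cck, from shSerpine2-2 through shRenilla, shSerpine2-1 and shSlpi-1 to shSlpi-2, is the reverse of their order by the number of entries with a read, and the part of that in Cck was not tested.

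**Figure D2:**
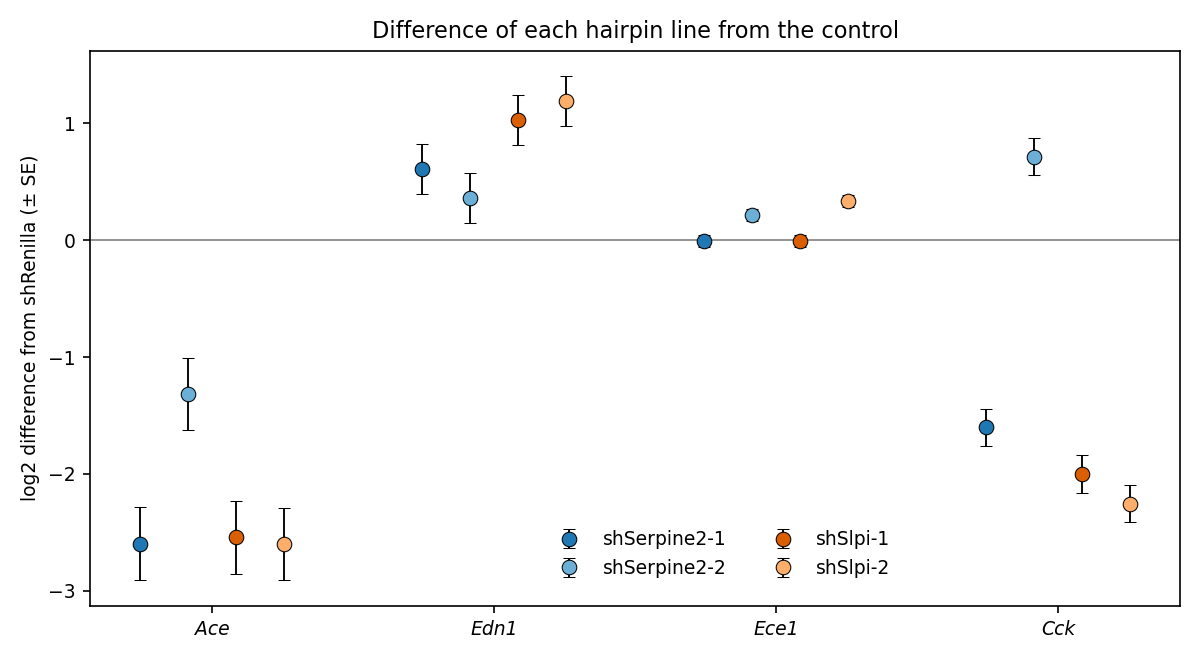
Log2 difference of each hairpin line from shRenilla (vertical axis, on log2(normalized count + 1)) for the 4 members (horizontal axis). Points are differences of means of 2 libraries and bars are ± SE from the fit over all 10 libraries: Cck was at 0.71 in shSerpine2-2 and at -1.60 to -2.26 in the other lines, and Ece1 stayed between -0.01 and 0.34.

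Ace, the angiotensin-converting enzyme gene, was lower in all 4 knockdown lines than in the control. It was at 134 and 149 normalized reads in shRenilla, from 127 and 135 reads. It was at 29.0 and 17.4 in shSerpine2-1, at 26.2 and 20.8 in shSlpi-1 and at 15.5 and 32.2 in shSlpi-2, from 15 to 34 reads. It was at 59.7 and 52.8 in shSerpine2-2. The 6 libraries of the first 3 of these lines overlapped one another, the shSerpine2-2 libraries lay between them and the control, and no knockdown library reached the control level. Of all genes tested, 18.9% had all 4 Serpine2 hairpin libraries below both controls and 20.6% all 4 Slpi hairpin libraries.

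Mean Ace was 6.09-fold lower than in shRenilla in shSerpine2-1, 6.01-fold lower in shSlpi-1, 5.93-fold lower in shSlpi-2 and 2.51-fold lower in shSerpine2-2. The log2 difference from control was -1.96 ± 0.27 (SE) for both Serpine2 hairpins and -2.57 ± 0.27 for both Slpi hairpins. A log2 difference of at least 1 in size was seen in 0.512% and 1.26% of the genes tested, and Ace was chosen on these contrasts. Ace was 0.62 ± 0.22 higher with the Serpine2 hairpins than with the Slpi hairpins, given as a size with no test; 17.5% of all genes tested changed in that comparison.

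Between the Serpine2 hairpins, Ace differed by 1.28 ± 0.31 (SE) on the log2 scale and was lower in shSerpine2-1. Without 1 library at a time this difference (hairpin 1 minus hairpin 2) was -1.63 to -0.93, and it was -0.93 without shSerpine2-1 B. Between the Slpi hairpins Ace differed by 0.06, with a 95% interval of -0.59 to 0.71. That interval includes 0, and at 16 to 34 reads of Ace per Slpi hairpin library the direction of the difference is not settled.

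Ece1, the endothelin-converting enzyme gene, was the member that differed least from the control. It was at 3514 and 3451 normalized reads in shRenilla, at 3453 and 3474 in shSerpine2-1 and at 3603 and 3340 in shSlpi-1, and these 3 groups overlapped. It was at 4054 and 4043 in shSerpine2-2 and at 4311 and 4481 in shSlpi-2, and both groups lay above all libraries of the other 3 groups, with shSlpi-2 highest. The means of these lines were 1.16 and 1.26 times that of shRenilla, and those of shSerpine2-1 and shSlpi-1 were 0.995 and 0.997 times. For Ece1 the described log2 difference from control was 0.10 ± 0.04 (SE) over both Serpine2 hairpins and 0.17 ± 0.04 over both Slpi hairpins. Without the shSlpi-2 libraries the latter was -0.01.

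Ece1 was thus higher with 1 hairpin of each target than with the other. It was 0.23 ± 0.05 (SE) lower in shSerpine2-1 than in shSerpine2-2 on the log2 scale, and that difference stayed at -0.23 to -0.22 when 1 library was left out. It was 0.34 ± 0.05 lower in shSlpi-1 than in shSlpi-2. Of all genes tested, 26.1% had an adjusted p under 0.05 between the Slpi hairpins, and the difference of Ece1 is given as a size only. With only the Slpi hairpin libraries in the fit, 1252 of the 12299 genes tested passed, against 3204 in the main fit. The Rn45s share and the number of entries with a read were also highest in shSlpi-2, and their part in this difference was not tested.

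Per kilobase of merged exon, the members kept Ece1 first and Cck second in every group. In shRenilla, Ece1 was at 657 ± 8.35 normalized reads per kilobase (SD, n = 2), Cck at 213 ± 26.6, Ace at 26.7 ± 2.00 and Edn1 at 15.7 ± 3.35. In shSlpi-2 the levels per kilobase were 829 ± 22.6 for Ece1, 43.9 ± 6.62 for Cck, 36.0 ± 1.47 for Edn1 and 4.51 ± 2.24 for Ace (SD, n = 2). Ace was above Edn1 per kilobase in shRenilla and below it in each knockdown line, where Edn1 was at 20.1 to 36.0 and Ace at 4.39 to 10.6. Over the 5 groups the converting enzyme gene Ece1 was at 653 to 829 normalized reads per kilobase and the gene of its substrate, Edn1, at 15.7 to 36.0.

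The levels of 3 members were set beside Slpi, a comparison chosen after their values were seen. The order of the group means of Edn1 is the reverse of that of Slpi, from shSlpi-2 (77.0 and 68.3 normalized reads of Edn1 and Slpi) through shSlpi-1 (68.6 and 146), shSerpine2-1 (51.6 and 370) and shSerpine2-2 (43.0 and 1164) to shRenilla (33.5 and 1251). The order of neighbours is not settled. The 95% intervals of Edn1 include 0 between shSerpine2-2 and shRenilla, between the Serpine2 hairpins and between the Slpi hairpins. For Slpi, shSerpine2-2 minus shRenilla had an interval of -0.36 to 0.15. Cck has the same order as Slpi, except that shSerpine2-2 (456 normalized reads of Cck) is above shRenilla (277). Over the 10 libraries, Pearson's r of log2(normalized count + 1) with Slpi was 0.93 for Cck, -0.93 for Edn1, 0.79 for Ace and -0.34 for Ece1. With Serpine2 it was 0.47 for Ace, 0.14 for Ece1, 0.04 for Cck and -0.05 for Edn1. These describe 5 groups that share their library, depth and hairpin, and Slpi in the shSlpi lines is set by its own hairpin. Slpi ranked 20 from the top of 9876 genes by its r with Cck, 282 with Ace, 6568 with Ece1 and 9857 with Edn1. The members were picked for differences of these lines, so nothing is read from these ranks.

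**Figure D3:**
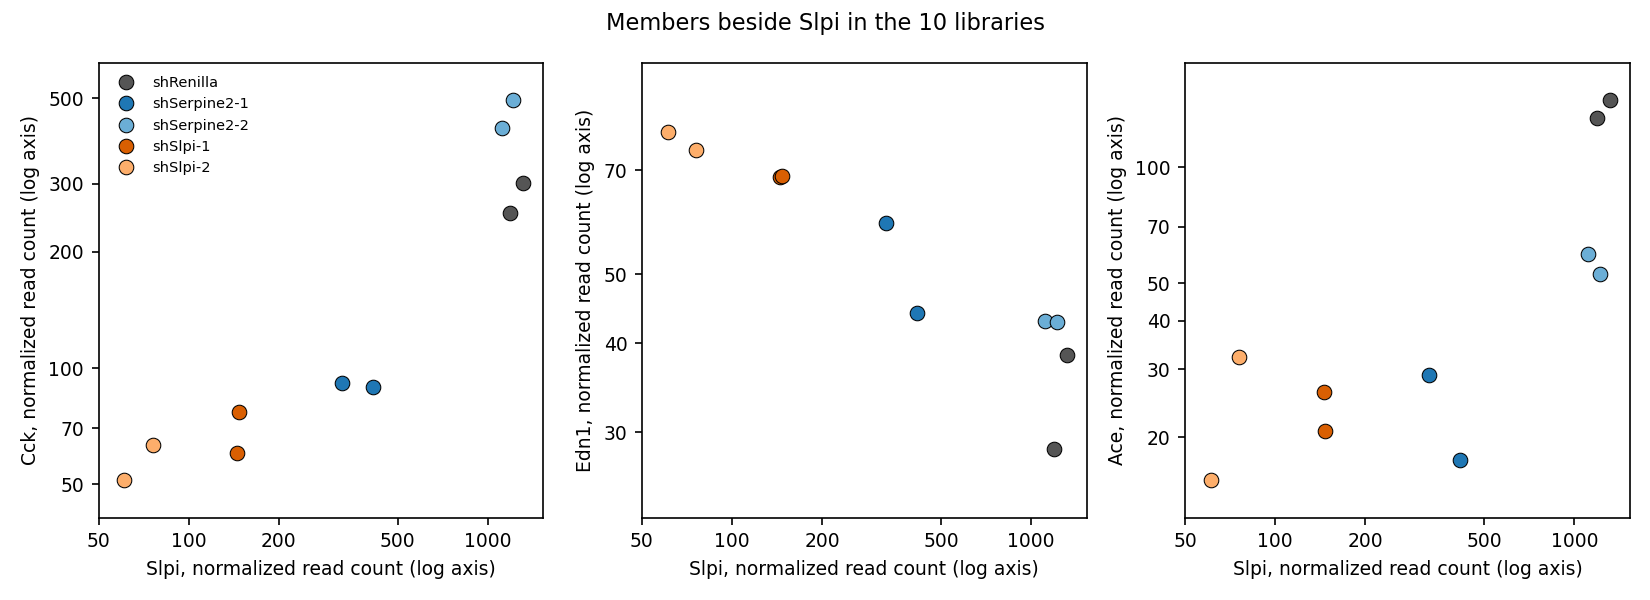
Normalized read counts of Cck, Edn1 and Ace (vertical log axes) against that of Slpi (horizontal log axes) in the 10 libraries, coloured by group. Each point is 1 library: those of shSerpine2-1 lie at a Slpi level of 326 and 414, between the shSlpi lines and the others, with Cck at 91.3 and 89.4.

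For each member the 3 genes of most similar pattern were taken by Pearson's r over the 10 libraries, among 9876 genes with a mean of at least 50. For Ace they were Stc1 (r = 0.98), a secreted stanniocalcin, Lyn (0.97), a Src family kinase, and Tnfrsf22 (0.96), a decoy TRAIL receptor. Stc1 was at 1090 and 1134 normalized reads in shRenilla, 869 and 897 in shSerpine2-2 and 654 to 740 in the other lines. For Edn1 they were Gsn (r = 0.94), which severs actin filaments, Htr5b (0.93), a serotonin receptor gene, and Sorbs2 (0.93), a cytoskeletal adaptor. Gsn was at 754 and 779 in shRenilla and at 1235 and 1267 in shSlpi-2. For Ece1 they were Rrs1 (r = 0.98), a ribosome assembly factor, Tmem109 (0.98), a membrane protein, and S1pr2 (0.97), a sphingosine-1-phosphate receptor. Rrs1 was at 741 and 755 in shRenilla, 1069 and 1007 in shSerpine2-2 and 1354 and 1249 in shSlpi-2. For Cck they were Olfm1 (r = 0.98), a secreted olfactomedin, Cmtm3 (0.98), and Smox (0.97), spermine oxidase. Olfm1 was at 1943 and 1862 in shRenilla, at 2110 and 2087 in shSerpine2-2 and at 1127 to 1464 in the other lines. These likenesses are descriptions over libraries that share 5 groups.

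The other genes of these pathways were taken from 6 lists with 96 genes, of which 95 were in the table and 29 reached a mean of 10. Of these 29, 5 rose and 1 fell with the Serpine2 hairpins against shRenilla (20.7%; of all genes tested 21.5% changed, 10.7% upward and 10.8% downward), and 23 did not pass. With the Slpi hairpins 5 rose and 2 fell (24.1%; of all genes tested 34.8% changed, 16.5% upward and 18.3% downward), and 22 did not pass. The median log2 difference of the 29 was 0.08 and 0.05, against 0.00 and -0.01 over all genes tested. The shares of changed genes were thus near or below the background. The Serpine2 count was 1 to 3 when any 1 of the shRenilla or Serpine2 hairpin libraries was left out (1 without shRenilla B) and 2 with no filter on low counts. The Slpi count was 4 without both shSlpi-2 libraries and 11 with no filter. Both comparisons share the shRenilla libraries.

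Of the renin and angiotensin list, 7 of 20 genes were tested, and 3 rose with the Serpine2 hairpins (10.7% of all genes tested rose) and 0 with the Slpi hairpins (16.5%). Thop1, a peptidase that cuts angiotensins and bradykinin, was at 276 ± 24.8 normalized reads in shRenilla, 350 ± 14.3 in shSerpine2-1 and 376 ± 8.28 in shSerpine2-2 (SD, n = 2), a log2 difference of 0.39 ± 0.10 (SE; adjusted p = 0.00949, limma). Prep, prolyl endopeptidase, rose from 2774 ± 7.95 to 3090 ± 17.3 and 3151 ± 43.4 (SD, n = 2; 0.17 on the log2 scale, adjusted p = 0.00874, limma). Atp6ap2, the (pro)renin receptor, rose from 849 ± 11.7 to 921 ± 5.97 and 1044 ± 5.57 (SD, n = 2; 0.21 on the log2 scale, adjusted p = 0.0300, limma). Without shRenilla B none of these calls held, at adjusted p = 0.183 for Thop1, 0.0851 for Prep and 0.155 for Atp6ap2, and the calls of Prep and Atp6ap2 were also lost without shRenilla A, at 0.0688 and 0.170. Between the Serpine2 and the Slpi hairpins Thop1 and Atp6ap2 did not differ by the test (adjusted p = 0.105 and 0.123, limma), while Prep did (0.00144). Thop1 was at 363 ± 51.3 in shSlpi-2 (SD, n = 2), and in that line taken by itself it rose by 0.39 against shRenilla (adjusted p = 0.0112, limma). Of all 12299 genes tested, 5210 passed between shSlpi-2 and shRenilla. Taken by line, Thop1 and Atp6ap2 passed against shRenilla in shSerpine2-2 (adjusted p = 0.00837 and 0.00736, limma) but not in shSerpine2-1 (0.0654 and 0.355). Of all genes tested, 3384 passed in shSerpine2-2 and 1288 in shSerpine2-1. The call of Atp6ap2 over both Serpine2 hairpins was also lost without any 1 of the 4 Serpine2 hairpin libraries. Other genes of the list were weak: renin (Ren1) had 0 reads in all libraries, the precursor Agt was at 0 to 2.63, the receptor Agtr1a at 0 to 3.79 and the angiotensin-(1-7) receptor Mas1 at 1.76 to 10.5.

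Of the endothelin list, 3 of 9 genes were tested, and Ece2 rose with the Slpi hairpins. Ece2, a second endothelin-converting enzyme, was at 169 ± 3.84 in shRenilla, 204 ± 15.7 in shSlpi-1 and 223 ± 11.4 in shSlpi-2 (SD, n = 2), a log2 difference of 0.33 ± 0.11 (SE; adjusted p = 0.0297, limma). This call was lost without shRenilla A (adjusted p = 0.158), shRenilla B (0.115), shSlpi-1 A (0.0858) or both shSlpi-2 libraries (0.128). Taken by line, Ece2 passed against shRenilla in shSlpi-2 (adjusted p = 0.0201, limma) but not in shSlpi-1 (0.176). Furin and Pcsk7, convertases that act on many precursors, did not pass in the mean of both hairpins of either target. Furin was higher with hairpin 2 of each target than with hairpin 1: it was at 1378 and 1274 in shSerpine2-2 and at 1264 and 1338 in shSlpi-2, against 1102 and 1143 in shRenilla. It was 0.24 above shRenilla in shSerpine2-2 (adjusted p = 0.00984) and 0.21 above it in shSlpi-2 (adjusted p = 0.0120, both limma). Of all 12299 genes tested, 3384 passed against shRenilla in shSerpine2-2 and 5210 in shSlpi-2. The difference of Furin, hairpin 1 minus hairpin 2, was -0.30 for both targets (adjusted p = 0.00549 for Serpine2 and 0.00247 for Slpi, limma). Between these hairpins 14.7% (Serpine2) and 26.1% (Slpi) of all genes tested passed. Furin was given here after its values were seen, and the alternatives were not run for it. The receptors were at 0 to 8.52 (Ednra) and 0 to 2.84 (Ednrb), and the other ligand genes were at 0 to 0.766 (Edn2) and, outside shSlpi-2, 0 to 4.46 (Edn3). A count of 0 allows up to 3.48 normalized reads in the shallowest library, and Ednra was above that in 3 libraries and Ednrb in 0.

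Of the kinin list 3 of 9 genes were tested. Cpd, a carboxypeptidase, rose with the Serpine2 hairpins from 6080 ± 149 to 6822 ± 39.0 and 6572 ± 56.2 (SD, n = 2; 0.14 on the log2 scale, adjusted p = 0.0264, limma). Its call was lost without either control or any 1 of the 4 Serpine2 hairpin libraries, with an adjusted p of up to 0.245. Bdkrb2, the bradykinin receptor, was at 91.7 to 138 over all libraries and did not pass in the mean of both hairpins of either target. It was 0.44 above shRenilla in shSlpi-2 alone (adjusted p = 0.0236, limma), where 5210 of all 12299 genes tested passed. Of the 17 other gut peptide genes in the table, 0 reached a mean of 10. The highest were Ghrl (ghrelin), at 4.41 to 12.3, and Nmb (neuromedin B), at 2.32 to 14.5, both with reads in all 10 libraries. Gastrin (Gast) had 0 reads in all libraries, and the cholecystokinin receptors were at 0 to 5.20 (Cckar) and 0 to 3.79 (Cckbr).

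Of the prohormone processing list 6 of 15 genes were tested. Cpe, the carboxypeptidase E that trims peptide hormone precursors, was called with the Slpi hairpins (log2 difference 0.33 ± 0.04, adjusted p = 2.20e-05, limma), but its level was at 5129 ± 109 in shSlpi-1 and 8716 ± 550 in shSlpi-2, against 5322 ± 8.72 in shRenilla (SD, n = 2). Without the shSlpi-2 libraries the difference was -0.05. Between the Slpi hairpins Cpe differed by 0.76 on the log2 scale, higher in shSlpi-2 (adjusted p = 6.17e-08, limma). Pam, Tpst1 and Tpst2, which amidate and sulfate peptides such as cholecystokinin, did not pass in the mean of both hairpins of either target, and the convertase Pcsk1 was at 0 to 1.89.

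Of the list of other vasoactive genes, 10 of 25 were tested. Adm, adrenomedullin, a vasodilator peptide, rose with both targets: it was at 126 ± 16.2 in shRenilla, 163 ± 16.0 and 176 ± 9.47 with the Serpine2 hairpins and 185 ± 8.18 and 150 ± 1.20 with the Slpi hairpins (SD, n = 2). Taken by line, Adm passed against shRenilla in shSerpine2-2 and shSlpi-1 (adjusted p = 0.0124 and 0.00823, limma). It did not pass in shSerpine2-1 or shSlpi-2 (0.0866 and 0.139). In shSerpine2-2 and shSlpi-1, 3384 and 2156 of all 12299 genes tested passed. Over both hairpins of a target the log2 difference was 0.42 ± 0.11 (adjusted p = 0.0143) and 0.40 ± 0.11 (SE, adjusted p = 0.0115, both limma). Both calls were lost without shRenilla A, at adjusted p = 0.188 and 0.182, and that with Serpine2 also without shSerpine2-1 B (0.0548) or shSerpine2-2 A (0.0514). Npr3, the natriuretic peptide clearance receptor, and Apln, apelin, were called with the Slpi hairpins at 0.18 ± 0.05 (adjusted p = 0.0095) and 0.17 ± 0.05 (SE; adjusted p = 0.0119, both limma). Their levels were at 1540 ± 27.8 and 1382 ± 26.6 in shSlpi-1 and at 1989 ± 84.4 and 1674 ± 1.36 in shSlpi-2, against 1550 ± 62.9 and 1349 ± 48.1 in shRenilla (SD, n = 2). Without the shSlpi-2 libraries the differences were -0.01 and 0.04. Npr3 lost its call without shRenilla B (adjusted p = 0.147) and Apln without shRenilla A (0.146).

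Both cyclooxygenase genes, whose enzymes make the prostaglandin precursor, fell with the Slpi hairpins. Ptgs1 was at 663 and 666 normalized reads in shRenilla, 445 and 452 in shSlpi-1 and 396 and 374 in shSlpi-2, with no overlap, a log2 difference of -0.68 ± 0.06 (SE; adjusted p = 1.05e-06, limma) that held in all 19 alternatives. With the Serpine2 hairpins it was at 467 and 449 in shSerpine2-1 and at 1044 and 963 in shSerpine2-2, so that the hairpins lay on either side of the control, and their difference of -1.13 ± 0.08 passed (SE; adjusted p = 2.05e-07, limma). Cck took these sides too, with shSerpine2-1 below and shSerpine2-2 above the control. Ptgs2, expressed at 25209 ± 747 in shRenilla, was at 22335 ± 234 in shSlpi-1 and 20442 ± 627 in shSlpi-2 (SD, n = 2). Its log2 difference with the Slpi hairpins was -0.24 (adjusted p = 0.00019, limma), and this call held in all 19 alternatives. Of the Serpine2 lines taken singly, Ptgs2 passed against shRenilla in shSerpine2-1 (adjusted p = 0.0138, limma) but not in shSerpine2-2 (0.372). In shSerpine2-1, 1288 of all 12299 genes tested passed. With the Serpine2 hairpins Ptgs2 was at 22125 ± 103 and 24228 ± 168 (SD, n = 2; -0.12, adjusted p = 0.0343, limma), and of the 10 fits that leave out 1 library this call held only in those without shSlpi-2 A or shSlpi-2 B, with an adjusted p of up to 0.298.

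**Figure D4:**
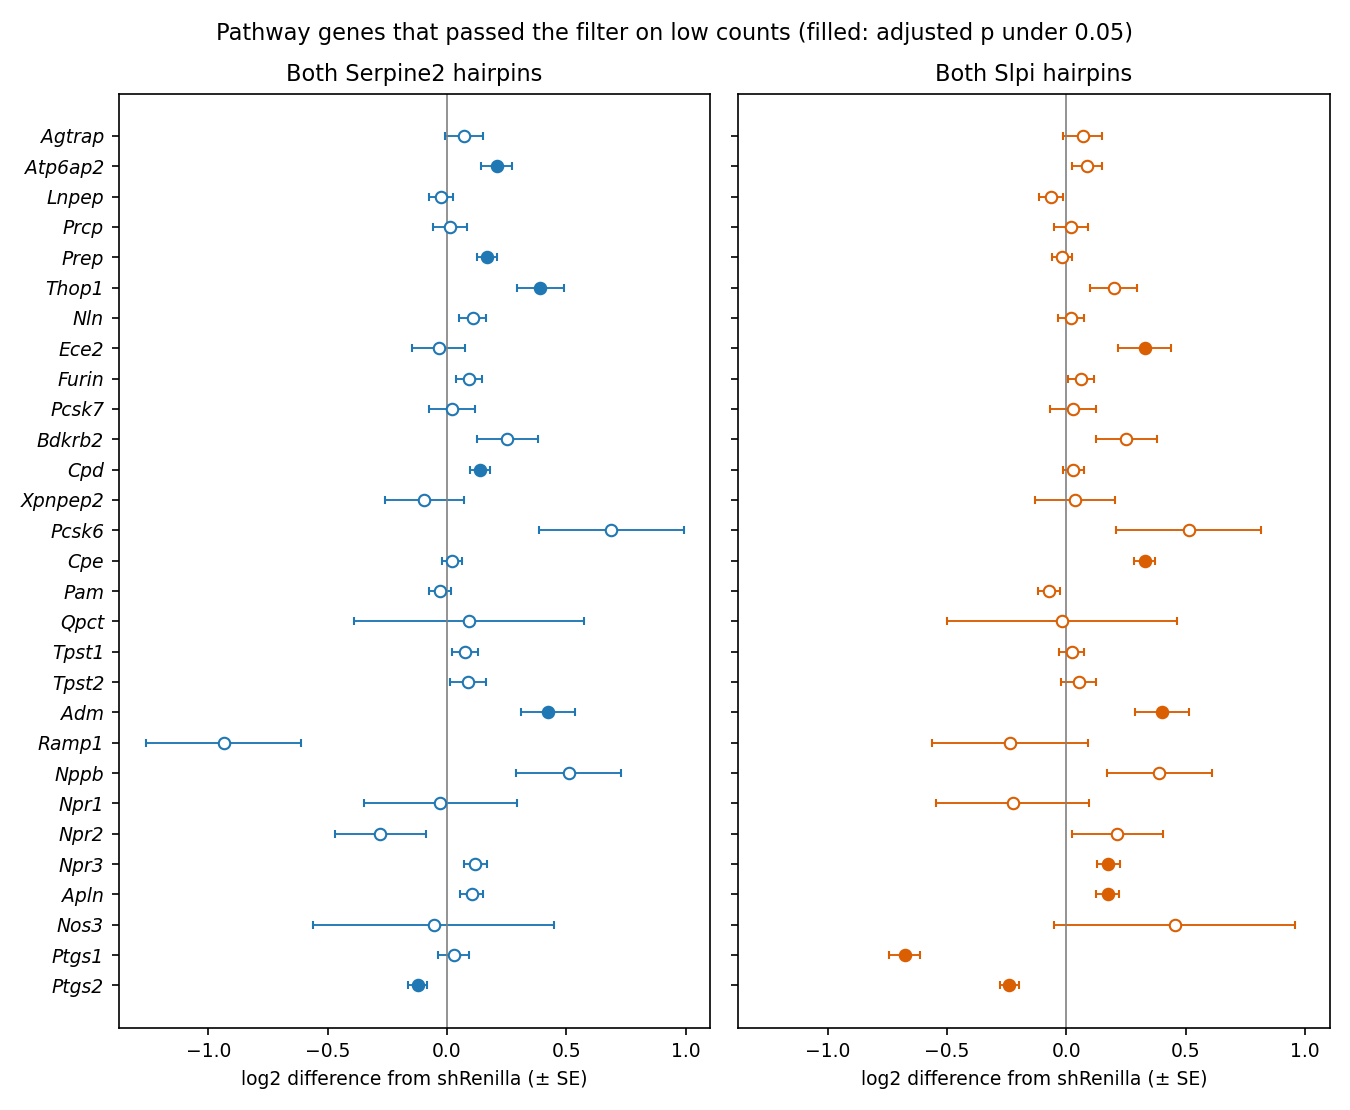
Log2 difference from shRenilla (horizontal axes, on log2(normalized count + 1)) of the 29 pathway genes that reached a mean of 10, for both Serpine2 hairpins (left) and both Slpi hairpins (right). Points are differences, bars are ± SE, and filled points passed an adjusted p under 0.05: Ptgs1 is at -0.68 with the Slpi hairpins, and Adm is filled in both panels, at 0.42 and 0.40.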

How the data were processed

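Total RNA of 10 libraries was amplified with a NuGEN kit and sequenced, per the labels' protocols. Per the submitters' processing notes, the authors used Bowtie2, HTSeq and DESeq with build mm10. Their versions, the annotation, filters and strand handling were not given in the sources used here. The deposited table holds log2 values for 23479 entries with a floor of 6.733366499, the form of a variance-stabilizing transformation. Inverting it gave normalized counts, and 100% of values were whole reads within 0.01. The inversion rests on the values alone. The planned test assumed normalized values, so it was run after inversion.

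The 12299 genes whose mean reached 10 were fitted with limma 3.58.1 (R 4.3.3, eBayes with trend) on log2(normalized count + 1), with 5 group means over all 10 libraries. P-values are two-sided and Benjamini-Hochberg adjusted over all genes, with a threshold of 0.05 for rose, fell or changed. The groups share an estimate of the spread, so the more variable shSlpi-2 libraries enter the p-values of every comparison. The fit was tested on simulated data. Depth was 15877431 to 24026620 reads. A count of 0 allows up to 3 reads, 2.30 to 3.48 normalized, which covers counting error but not amplification.

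Named were the members, both targets, every list gene that passed against shRenilla, and the 3 genes closest to each member by Pearson's r; list genes that did not pass were named for their role. The planned tests of the members between hairpins are given as sizes only, since the choice of the members used these lines. The values of 1 list gene are not reported here. The members and lists were chosen with earlier results of these data known. Alternatives covered the pseudocount, filter, scaling, transformation, libraries in the fit, a replicate block, precision weights (limma-voom) and left-out libraries. Gene positions are from GENCODE M21.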

Additional observations from a re-analysis of the deposited data

Results flagged for a closer look

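Differences of the members between the hairpins of 1 target are given as sizes, since the members were picked for differences of these lines. Between the Serpine2 hairpins (hairpin 1 minus hairpin 2, log2 scale) Cck was at -2.32, Ace at -1.28, Edn1 at 0.24 and Ece1 at -0.23. Between the Slpi hairpins Ece1 was at -0.34, Cck at 0.26, Edn1 at -0.16 and Ace at 0.06.

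Of the other pathway genes that passed against shRenilla with either target, 6 differed between the Serpine2 and the Slpi hairpins (Serpine2 minus Slpi, log2 scale, limma). These were Ptgs1 at 0.71 (adjusted p = 2.78e-07), Prep at 0.19 (0.00144), Ptgs2 at 0.12 (0.0194), Cpd at 0.11 (0.0378), Ece2 at -0.36 (0.0111) and Cpe at -0.31 (2.17e-05). Prep and Ptgs1 passed in all 19 alternatives, while Cpd passed in 6, Ptgs2 in 11, Ece2 in 15 and Cpe in 18. In this comparison 17.5% of all genes tested changed, and 24.1% of the 29 pathway genes tested. A gene that passed with 1 target tends to differ between the targets, so nothing is read from the count of 6.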

How the results depend on the processing

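Leaving out 1 library in turn gave 1 to 8 changed pathway genes for Serpine2 (6 with all; 1 without shRenilla B), 1 to 3 members between the Serpine2 hairpins (3 with all), and 766 to 3922 and 2401 to 5135 changed genes of all tested for Serpine2 (2643) and Slpi (4281). Between hairpins it gave 404 to 3181 for Serpine2 (1805) and 1539 to 3942 for Slpi (3204). Member differences then ranged over -1.63 to -0.93 (Ace) and -0.23 to -0.22 (Ece1) between the Serpine2 hairpins, and for Edn1 over 0.27 to 0.70 (Serpine2) and 0.90 to 1.32 (Slpi). With no filter, changed pathway genes were 2 and 11 (Serpine2, Slpi), changed genes 1632 for Serpine2 and 1133 between its hairpins, and Ace between these hairpins stayed at -1.28. With only the libraries compared, changed genes against shRenilla were 4176 (Serpine2) and 3500 (Slpi). Between the hairpins of a target they were 3599 (Serpine2) and 1252 (Slpi). The order of the targets by these counts is the reverse of that in the main fit. On the deposited transformed values, which compress weak genes, differences were smaller: Ace -0.74 and -0.91, Edn1 0.15 and 0.36, Cck -0.18 and -1.05 (Serpine2, Slpi). Without both shSlpi-2 libraries, an alternative chosen after seeing the data, the Slpi pathway count was 4. Then 3185 genes changed between the Serpine2 hairpins, against 1805 in the main fit. The differences between these hairpins are the same in both fits (median -0.0096), and only the shared estimate of the spread changed. These turned: Ece1 -0.0055, Cpe -0.054 and Npr3 -0.0086 (Slpi), and Cpe 0.076 and Npr3 0.13 (Serpine2 minus Slpi). Why they turned was not tested. The replicate block gave 6 and 7 changed pathway genes and 2594 and 4256 changed genes of all tested (Serpine2, Slpi). The labels tie the libraries of different groups by the letters A and B alone. Over 10537 genes, deviations of same-letter libraries from their group means correlated at -0.200 to 0.173, over 0.1 in 2 of 10 pairs. The largest in size was -0.200, between shSlpi-1 and shSlpi-2. Such correlations cannot show whether the letters pair libraries. Below about 3 normalized reads, depth limits every value.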

Other observations

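Of the 66 pathway genes under the filter, 8 had both shSlpi-2 libraries above the other 8 libraries. Among them Edn3, an endothelin ligand, was at 12.6 and 8.52 normalized reads in shSlpi-2 and at 0 to 4.46 in the other libraries. Pcsk5, a convertase, was at 17.4 and 10.4 in shSlpi-2 and at 0 to 5.04 in the others. Ecel1, a relative of the endothelin-converting enzymes, was at 5.80 and 8.52 and at 0 to 1.16, and Chga, chromogranin A, at 9.67 and 7.58 and at 0 to 4.46. The others were Ednra, Kel, Nts and Tbxas1. Of the 9942 entries with a read and a mean under 10, 76.8% and 80.0% had a read in shSlpi-2, against 31.1 to 61.0% in the other libraries. Their mean level was 3.11 and 3.50 in shSlpi-2, against 0.890 to 1.93 in the other libraries. How many of these entries had both shSlpi-2 libraries above the others was not counted. Nothing about the pathways is therefore read from the 8 genes.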
